A study of Mus musculus with 30 samples.

Results

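RNA sequencing measured what the loss of interferon regulatory factor 1 (IRF1) did to transcript levels in the mouse dendritic cell line DC3.2 after 2 h with interferon alpha (IFNα). The comparison rests on 4 of the 30 libraries of the series, namely 2 IRF1KO libraries and 2 WT libraries, all from cells kept with IFNα at 5000 U/mL, and it was described across all genes. The comparisons set beside it used IRF1KO and WT cells kept for 2 h in media alone, IRF1KO and WT cells kept for 2 h with interferon gamma (IFNγ) at 2 ng/mL, and DKO cells (IRF1 and IRF2 both targeted) and IRF2KO cells kept for 2 h with the same IFNα, with 2 libraries in each group. In the titles IRF1KO reads IRF1sg, IRF2KO reads IRF2sg and WT reads nosg. The labels do not say whether a line is 1 clone, and they name no targeting control, so what the targeting procedure itself does was not tested. The labels leave unsaid whether replicates were separate cultures, so every p-value here measures only the spread between these samples, which may be technical.

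Type I interferons such as IFNα act through a receptor and its kinases on the complex ISGF3, which holds STAT2 and IRF9 and switches on antiviral genes through a DNA element called the ISRE. IFNγ acts through another receptor and a DNA element called GAS. The gene of IRF1 is itself induced by interferon, and the IRF1 protein binds ISRE-like elements, so that it can act as a later wave of the interferon response. IRF2 binds the same elements and is best known as its antagonist, although it can also activate genes such as those of antigen presentation.

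Levels are TPM, the share of each library taken by a gene per transcript length, from which the read depth behind a value cannot be known. Differences are between group means of log2(TPM + 1), with their SE, and understate the change of low genes. A gene was called when its adjusted p was under 0.05 in limma, a linear model with variances shared across genes, with Benjamini-Hochberg adjustment over the 11842 genes tested. The share of all genes whose groups of libraries do not overlap was not counted, so such an order adds no support to a difference. The 4 libraries were alike in general measures. Between 10993 and 11045 genes reached 1 TPM in each, and the replicates correlated with Pearson r of 0.988 in IRF1KO and 0.981 in WT across genes, which are not independent replicates. The cell line was checked against markers. Itgax (CD11c) had 53.7 and 56.7 TPM in IRF1KO and 52.2 and 58.2 TPM in WT, and Batf3 and Irf8 lay between 49.7 and 87.2 TPM. Other dendritic cell markers were low or absent. Flt3 and Clec9a were at 0 in all 4 libraries, Xcr1 reached at most 0.18 TPM and Itgae at most 0.22 TPM. Zbtb46 had 1.10 and 0.92 TPM in IRF1KO and 0.52 and 0.37 TPM in WT. The 12 dendritic cell markers, led by Id2 and Spi1, summed to 1232 and 1122 TPM in IRF1KO and 1150 and 1142 TPM in WT. The 9 macrophage and monocyte markers, led by Lyz2, summed to 3414 and 3219 TPM in IRF1KO and 3200 and 3204 TPM in WT. The 9 lymphocyte markers reached at most 0.61 TPM in sum and the 8 fibroblast markers at most 0.98 TPM, with Cd3e, Cd8a, Col1a2 and Col3a1 at 0 in all 4 libraries.

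Irf1 mRNA was present in the knockout libraries. It had 323.9 and 281.1 TPM in IRF1KO and 194.4 and 165.6 TPM in WT under IFNα, so both IRF1KO libraries lay above both WT libraries. The difference was 0.75 ± 0.17 (SE, n = 2 libraries each) and did not pass the test (adjusted p = 0.218, limma). An edit that ends the protein need not lower the mRNA, so these levels do not check the line. Irf1 (chromosome 11, 53770014 to 53778374 on GRCm38.p6, where all positions below are also given) still took part in the response, with differences between IFNα and media of 3.44 in IRF1KO and 3.03 in WT.

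Under IFNα, IRF1KO cells had lower levels of a small group of interferon-induced genes, most of them GTPase and IFIT genes. Of 11842 genes tested, 21 were called lower in IRF1KO than in WT (0.177% of those tested) and 0 higher. At an unadjusted p under 0.05 there were 269 genes, of which 102 were higher and 167 lower. The 21 genes are 7 genes of guanylate-binding proteins (GBPs), 7 genes of immunity-related GTPases (IRGs), 4 of the IFIT family, and Cmpk2, Oasl2 and Sp140. Their differences ran from −3.33 to −0.78 with a median of −1.57. In all 21 both IRF1KO libraries lay below both WT libraries. The difference was negative within both replicate numbers, with a median of −1.63 in number 1 and −1.44 in number 2. The genes were called on these same 4 libraries, so this order is nearly given by the call and adds no support. In bulk libraries a lower level in every cell and the loss of a transcript from a share of the cells cannot be told apart. With 1 library left out, the count was 6 without IRF1KO replicate 1, 8 without IRF1KO replicate 2, 9 without WT replicate 1 and 8 without WT replicate 2. All 21 differences stayed negative in each of these fits, and Gm12250, Ifi47, Tgtp2, Gbp4 and Gbp2 were called in every one. With a pseudocount of 0.1 the calls of Cmpk2, Gm12185, Gm14446, Ifit1, Ifit3 and Oasl2 were lost, and with a pseudocount of 5, or with no filter, those of Gbp7 and Gbp9.

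**Figure D1:**
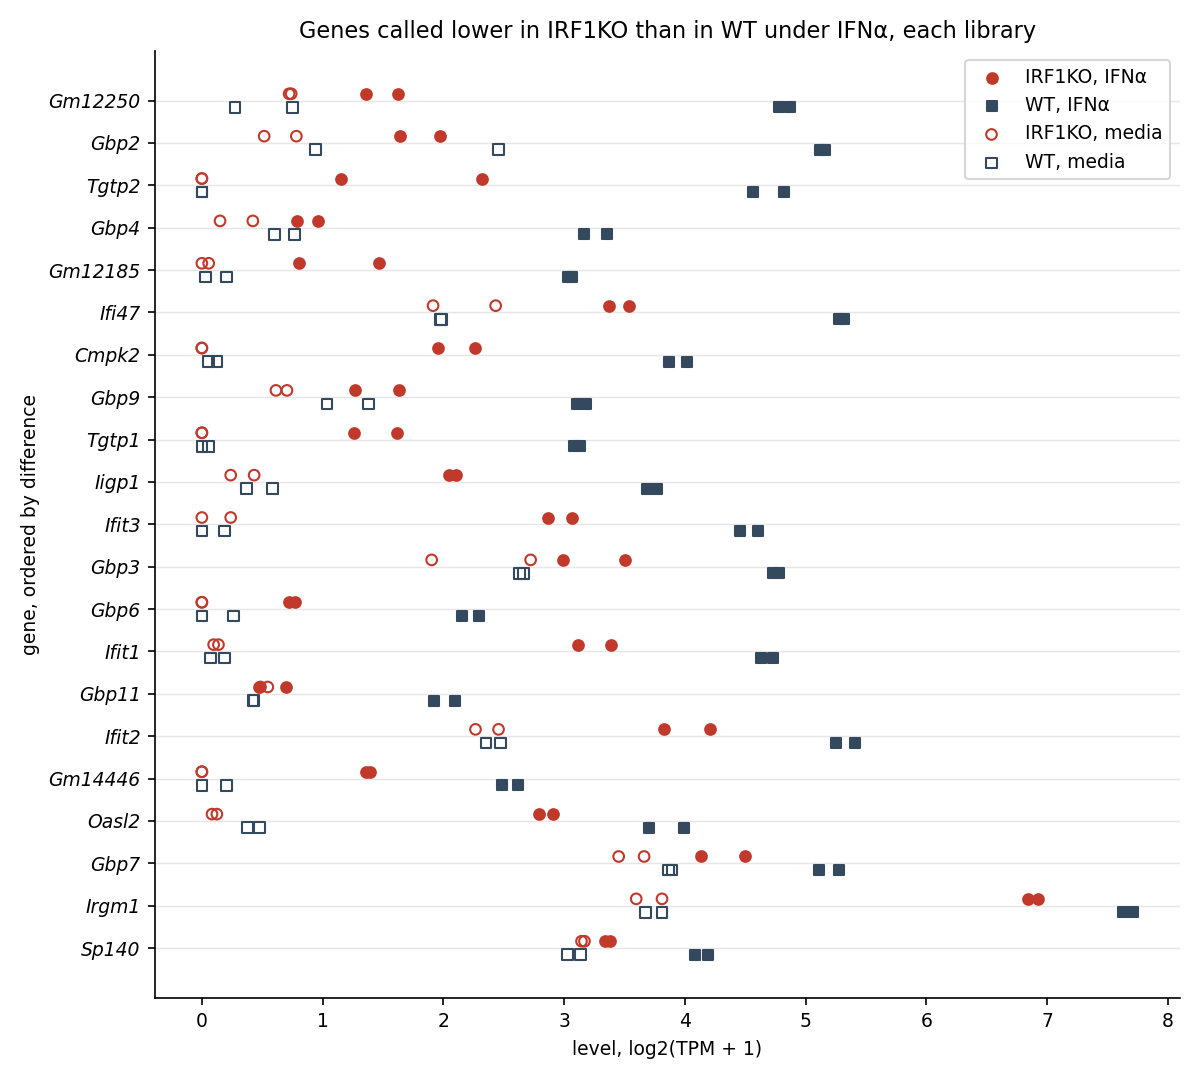
Level of each of the 21 genes called lower in IRF1KO, as log2(TPM + 1) on the horizontal axis, with 1 point per library: circles for IRF1KO, squares for WT, filled for IFNα and open for media. For every gene the 2 filled circles lie to the left of the 2 filled squares. Several filled circles, such as those of Gm12250, Gbp4 and Gbp11, lie near the open symbols.

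The windows around the start sites of 5 of these genes are shown because they carry the element through which IRF1 and ISGF3 are known to act, together with that of Stat2, which holds the same letters and did not pass the test between IRF1KO and WT. Each runs from 250 bases before to 50 bases after the start site, on the strand of the gene, from RefSeq on GRCm38.p6. Capitals mark matches to the ISRE core GAAANNGAAA on either strand.
Gm12250, chr11:58183593-58183892, plus strand: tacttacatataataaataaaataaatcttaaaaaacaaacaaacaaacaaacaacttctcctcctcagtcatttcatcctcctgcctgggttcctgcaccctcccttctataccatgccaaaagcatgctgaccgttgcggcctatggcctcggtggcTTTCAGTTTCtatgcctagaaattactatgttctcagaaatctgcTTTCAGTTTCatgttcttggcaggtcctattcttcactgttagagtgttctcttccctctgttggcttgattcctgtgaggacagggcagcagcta
Gbp2, chr3:142620413-142620712, plus strand: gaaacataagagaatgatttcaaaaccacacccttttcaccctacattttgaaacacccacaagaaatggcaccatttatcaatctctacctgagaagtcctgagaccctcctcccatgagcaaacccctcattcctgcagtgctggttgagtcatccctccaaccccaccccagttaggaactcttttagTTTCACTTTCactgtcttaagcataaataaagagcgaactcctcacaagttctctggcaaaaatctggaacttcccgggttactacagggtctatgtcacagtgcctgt
Tgtp2, chr11:49064163-49064462, minus strand: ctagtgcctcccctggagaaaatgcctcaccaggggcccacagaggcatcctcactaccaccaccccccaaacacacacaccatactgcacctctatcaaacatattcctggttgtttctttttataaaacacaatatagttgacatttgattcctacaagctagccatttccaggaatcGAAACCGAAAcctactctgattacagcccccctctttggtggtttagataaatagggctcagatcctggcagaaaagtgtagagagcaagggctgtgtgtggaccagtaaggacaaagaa
Irgm1, chr11:48871371-48871670, minus strand: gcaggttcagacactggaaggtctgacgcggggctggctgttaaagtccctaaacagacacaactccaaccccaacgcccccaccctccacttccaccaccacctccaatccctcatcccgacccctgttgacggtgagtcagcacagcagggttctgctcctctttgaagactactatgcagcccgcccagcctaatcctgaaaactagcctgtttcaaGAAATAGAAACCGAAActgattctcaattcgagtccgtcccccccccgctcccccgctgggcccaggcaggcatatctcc
Ifit1, chr19:34640639-34640938, plus strand: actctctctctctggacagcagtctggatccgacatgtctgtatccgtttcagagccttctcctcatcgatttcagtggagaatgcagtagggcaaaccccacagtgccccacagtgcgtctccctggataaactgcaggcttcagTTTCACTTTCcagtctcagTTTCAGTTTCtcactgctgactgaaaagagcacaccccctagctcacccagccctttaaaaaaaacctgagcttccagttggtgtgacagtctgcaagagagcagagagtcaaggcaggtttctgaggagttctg
Stat2, chr10:128270248-128270547, plus strand: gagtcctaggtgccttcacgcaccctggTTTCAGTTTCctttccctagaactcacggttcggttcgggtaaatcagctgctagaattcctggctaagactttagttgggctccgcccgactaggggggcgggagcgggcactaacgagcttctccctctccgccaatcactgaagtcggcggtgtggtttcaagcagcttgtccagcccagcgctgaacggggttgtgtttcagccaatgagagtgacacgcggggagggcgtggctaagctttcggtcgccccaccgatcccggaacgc

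Matches stood 46 and 91 bases before the start site in Gm12250, counted from the first base of the match, and 59 bases before it in Gbp2. In Tgtp2 the match stood 70 bases before the start. Irgm1 had overlapping matches 24 and 30 bases before the start, Ifit1 had matches at 85 and 104 bases, and Stat2 had 1 at 222 bases. Of the 21 genes called lower, 15 have a window in the table, and 10 of these 15 (66.7%) hold the core. Among the genes that IFNα raised in IRF2KO cells, a set that uses none of the 4 libraries, and that were not called in IRF1KO against WT, 36 of 108 windows (33.3%) hold it. The share was 3.94% of the 8476 windows of tested genes and 3.99% of all 27025 windows. The GAS letters TTCNNNGAA, which read the same on both strands, stood in 6 of the 15 windows (40%), in 22 of the 108 (20.4%) and in 9.55% of all windows. Tgtp1, Tgtp2 and Gm12185, relatives in 1 stretch of chromosome 11, hold both at nearly the same places. The core stood 77, 70 and 75 bases before their starts and the GAS letters 88, 81 and 86 bases before. Windows of such relatives are not independent, so the shares among the 15 can count 1 promoter more than once. A match is a description of the letters and not a bound site.

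Among the decreases were those of the immunity-related GTPases, which load onto vacuoles around pathogens and break them. Gm12250, which encodes Irgb10, had 1.56 and 2.09 TPM in IRF1KO and 28.2 and 26.5 TPM in WT. The groups were far apart, and the difference was −3.33 ± 0.22 (adjusted p = 9.15e-07, limma). Tgtp2 had 1.22 and 4.0 TPM in IRF1KO and 27.2 and 22.7 TPM in WT, a difference of −2.96 ± 0.30 (adjusted p = 0.000215). Ifi47, which encodes Irgd, had 9.33 and 10.6 TPM in IRF1KO and 38.8 and 37.7 TPM in WT. It fell by 1.84 ± 0.17 on the log2 scale (adjusted p = 6.85e-05), and the IRF1KO values kept well above those in media.

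Tgtp1 had 2.06 and 1.40 TPM in IRF1KO and 7.46 and 7.77 TPM in WT, with a difference of −1.67 ± 0.22 (adjusted p = 0.00193). Reads of Tgtp1 and Tgtp2, which are near-identical, are hard to assign to one of them, so their single values are uncertain. Their sum was 3.28 and 5.40 TPM in IRF1KO and 34.6 and 30.5 TPM in WT (−2.68 ± 0.21, adjusted p = 6.43e-06), and so the pair taken as 1 gene was also called lower. Iigp1, which encodes Irga6, had 3.14 and 3.29 TPM in IRF1KO and 11.9 and 12.6 TPM in WT (−1.65 ± 0.25, adjusted p = 0.00762). Gm12185, a further gene of the family, had 0.75 and 1.77 TPM in IRF1KO and 7.39 and 7.17 TPM in WT (−1.91 ± 0.33, adjusted p = 0.022).

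The regulatory members of the family, which keep the effector GTPases off the cell's own membranes, differed by less than the members named above. Whether other members differ by as little was not compared. Irgm1 had 113.9 and 120.7 TPM in IRF1KO and 208.7 and 197.1 TPM in WT, a difference of −0.79 ± 0.13 (adjusted p = 0.0115). Igtp, which encodes Irgm3, had 58.3 and 63.7 TPM in IRF1KO and 116.1 and 120.1 TPM in WT, and with −0.94 ± 0.20 it did not pass (adjusted p = 0.126). Irgm2 had 31.4 and 36.3 TPM in IRF1KO and 49.4 and 55.5 TPM in WT (−0.62 ± 0.27, adjusted p = 1). The 3 genes were the most abundant of the family here. In each both IRF1KO libraries lay below both WT libraries, which is no support where the test was not passed.

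GBP genes encode large GTPases that coat the same vacuoles and bacteria. Gbp2 had 2.93 and 2.12 TPM in IRF1KO and 34.8 and 33.7 TPM in WT, a difference of −3.33 ± 0.41 (adjusted p = 0.00116). Gbp4 had 0.73 and 0.95 TPM in IRF1KO and 7.96 and 9.21 TPM in WT (−2.38 ± 0.28, adjusted p = 0.000857). Gbp3 had 6.97 and 10.3 TPM in IRF1KO and 25.5 and 26.5 TPM in WT (−1.51 ± 0.25, adjusted p = 0.0143). In all 3 genes the groups were separate by more than the distance between replicates.

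Gbp9 had 1.41 and 2.10 TPM in IRF1KO and 7.61 and 8.06 TPM in WT (−1.69 ± 0.32, adjusted p = 0.0435). Gbp6, Gbp7 and Gbp11 were called as well, with differences of −1.48 ± 0.21, −0.88 ± 0.17 and −1.42 ± 0.20. Gbp11, which RefSeq lists as a transcribed pseudogene, had at most 3.27 TPM in any of the 4 libraries. Gbp8 had 1.16 and 1.35 TPM in IRF1KO and 5.63 and 5.29 TPM in WT, and its difference of −1.52 ± 0.32 did not pass (adjusted p = 0.126). It passed in the blocked fit, which adds the replicate number as a term (adjusted p = 0.0331), and at −2.04 with a pseudocount of 0.1 (adjusted p = 0.045). Gbp5, at −0.79 ± 0.22 (adjusted p = 0.846), and Gbp10, at −0.07 ± 0.19, lay at or below 1.22 TPM in all 4 libraries. With a pseudocount of 0.1 Gbp5 was at −2.295 and was called (adjusted p = 0.0331). The GBP genes are close relatives, and how the reads of shared stretches were divided among them can move single values.

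Over the whole list of interferon-inducible GTPases, 12 of 19 tested members were called lower, 7 of 10 GBPs and 5 of 8 IRGs, and 0 higher. All 19 differences were negative and their median was −1.48, where the median of all genes tested was 0.02 and 44.2% of them were negative. Gm12250 and Gm12185 are not in the list.

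**Figure D2:**
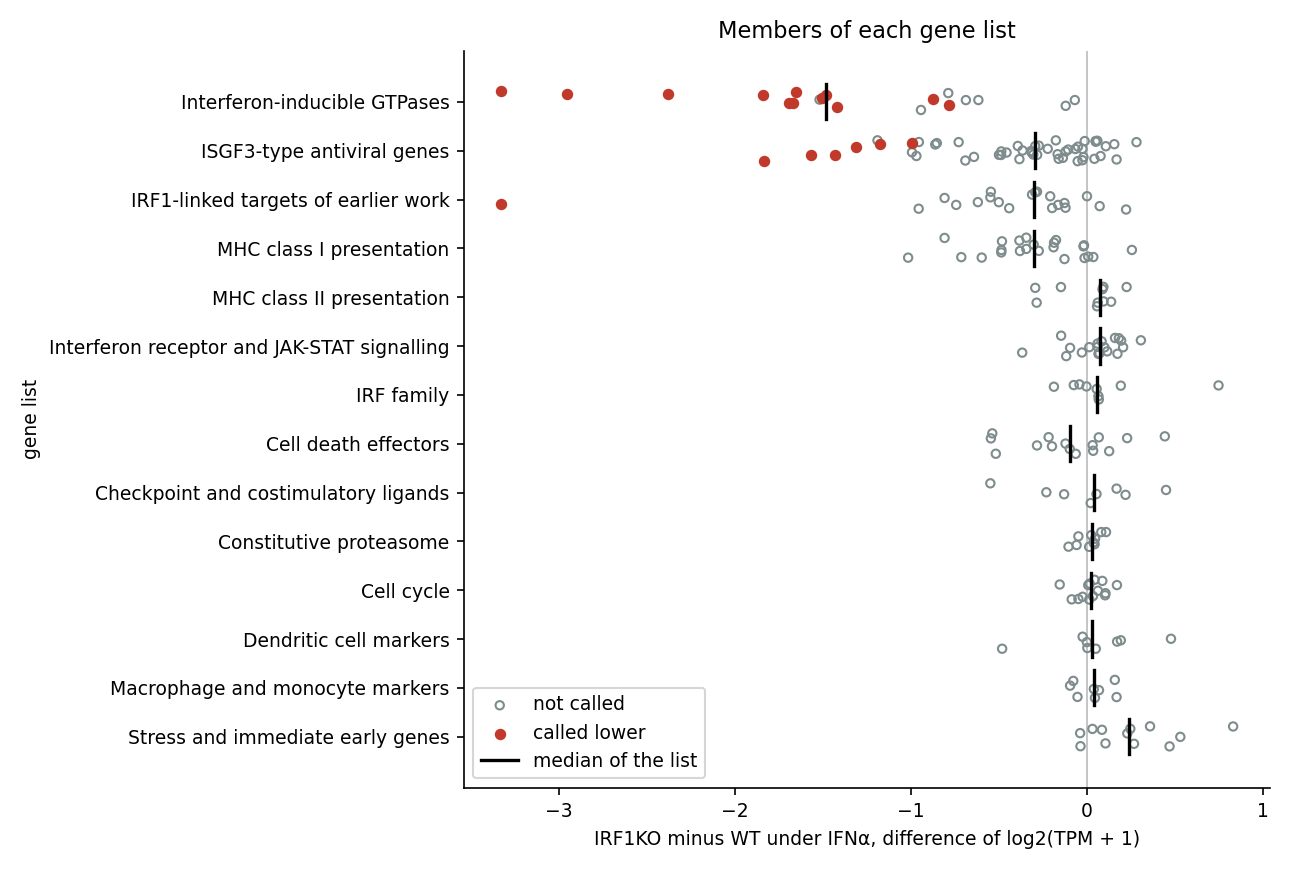
Difference between IRF1KO and WT under IFNα, in log2(TPM + 1), for the tested members of 14 gene lists, with 1 point per gene, filled where called lower, and a line at the median of each list. The GTPases lie furthest to the left, with a median of −1.48, while the medians of the JAK-STAT, class II, proteasome, cell cycle and cell type marker lists lie near 0.

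Of the antiviral genes of the ISGF3 type, a few were called lower and most were not, with differences that ran from −1.83 to 0.28. In the IFIT family, whose products bind viral RNA and halt translation, Ifit1 had 7.66 and 9.44 TPM in IRF1KO and 23.8 and 25.5 TPM in WT (−1.43 ± 0.22, adjusted p = 0.0107). Ifit3 had 6.30 and 7.37 TPM in IRF1KO and 23.3 and 21 TPM in WT (−1.57 ± 0.24, adjusted p = 0.00815). Ifit2 (−1.31 ± 0.23) and Gm14446, an Ifit1-like gene (−1.17 ± 0.19), were called too, and I830012O16Rik, listed by RefSeq as Ifit3b, was not (−0.96 ± 0.22, adjusted p = 0.19). All 5 IFIT genes kept a response in IRF1KO, where the differences between IFNα and media were 3.13 for Ifit1 and 2.85 for Ifit3, against 4.55 and 4.44 in WT.

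Cmpk2, a mitochondrial nucleotide kinase gene next to the antiviral gene Rsad2, had 2.88 and 3.80 TPM in IRF1KO and 13.6 and 15.2 TPM in WT (−1.83 ± 0.24, adjusted p = 0.00189). Rsad2 itself, which encodes viperin, had 0.44 and 0.83 TPM in IRF1KO and 2.35 and 2.12 TPM in WT, and did not pass (−0.99 ± 0.22, adjusted p = 0.177). Oasl2, which encodes a protein like the oligoadenylate synthetases, had 6.50 and 5.92 TPM in IRF1KO and 14.9 and 11.99 TPM in WT (−0.996 ± 0.165, adjusted p = 0.0143). Sp140, a chromatin reader of nuclear bodies, had 9.40 and 9.09 TPM in IRF1KO and 17.3 and 15.99 TPM in WT (−0.78 ± 0.14, adjusted p = 0.0215).

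Other genes that respond strongly to IFNα differed between the genotypes by less than their SE. Irf7, the factor that amplifies type I interferon, had 31.7 and 36.5 TPM in IRF1KO and 35.9 and 34.3 TPM in WT (−0.04 ± 0.21). Usp18, which restrains the receptor, had 74.5 and 70.7 TPM in IRF1KO and 80.3 and 68.0 TPM in WT (−0.03 ± 0.21). Their response was large in both, with differences between IFNα and media of 4.34 in IRF1KO and 4.36 in WT for Irf7, and of 4.55 in IRF1KO and 4.54 in WT for Usp18. Oas2 (0.17 ± 0.35), Oas3 (0.11 ± 0.27), Eif2ak2 (0.05 ± 0.15) and Bst2 (−0.02 ± 0.11) did not pass either. A result that misses the threshold does not show equal levels.

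Some antiviral genes had lower levels in IRF1KO without passing. Isg15, the ubiquitin-like modifier, had 31.9 and 29.3 TPM in IRF1KO and 84.0 and 59.9 TPM in WT (−1.19 ± 0.38, adjusted p = 1). Rtp4 had 41.8 and 38.7 TPM in IRF1KO and 77.7 and 69.4 TPM in WT (−0.85 ± 0.25, adjusted p = 0.986). Parp14 (−0.86 ± 0.20), Sp110 (−0.73 ± 0.15) and Mx1 (−0.97 ± 0.27) were of the same kind. In the ISGF3-type list as a whole, 6 of 51 tested members were called lower and 0 higher. In total 42 of the 51 differences were negative, and their median was −0.29.

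The parts that carry the interferon signal did not pass the test in this comparison. None of the 19 members of the receptor and JAK-STAT list was called. The receptor genes Ifnar1 (0.17 ± 0.23) and Ifnar2 (0.06 ± 0.12) and the kinase genes Jak1 (0.08 ± 0.15) and Tyk2 (0.18 ± 0.18) had differences close to 0. Stat2 had 32.1 and 37.5 TPM in IRF1KO and 33.5 and 32.9 TPM in WT (0.06 ± 0.26), and Irf9 had 25.6 and 29.4 TPM in IRF1KO and 23.3 and 25.7 TPM in WT (0.16 ± 0.14). In the IRF family 0 of 9 members were called, with Irf2 at −0.19 ± 0.14 and Irf8 at 0.19 ± 0.14.

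MHC class I presentation, in which IRF1 is known to act, had 0 of 23 tested members called under IFNα, and 20 of the 23 differences were negative with a median of −0.30. Among the immunoproteasome genes, Psmb9 had 30.2 and 38.0 TPM in IRF1KO and 65.5 and 55.0 TPM in WT (−0.81 ± 0.23, adjusted p = 0.786). Psmb10 had 102.1 and 90.0 TPM in IRF1KO and 171.4 and 145.5 TPM in WT (−0.71 ± 0.23). Psmb8 had 174.3 and 185.6 TPM in IRF1KO and 238.2 and 230.8 TPM in WT (−0.38 ± 0.12). All 3 differences were negative and missed the threshold.

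The proteasome activator genes Psme1 (−0.60 ± 0.21) and Psme2 (−0.49 ± 0.25) and the peptide transporter gene Tap2 (−0.48 ± 0.29) were alike in this. Tap1, its partner in the transporter, had 57.0 and 49.6 TPM in IRF1KO and 57.8 and 58.5 TPM in WT (−0.13 ± 0.17). The class I transactivator gene Nlrc5 (0.01 ± 0.27) and the heavy chain gene H2-D1 (−0.02 ± 0.08) showed almost no difference, H2-K1 was at −0.19 ± 0.10 and B2m at −0.18 ± 0.12. For Psmb9 and Psmb8 the differences in media, −0.76 and −0.37, were about as large as those under IFNα.

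Lists further from the interferon response held 0 called genes. They were MHC class II presentation (0 of 10, median 0.08), cell death effectors (0 of 15, median −0.10), checkpoint and costimulatory ligands (0 of 8, median 0.04), constitutive proteasome (0 of 10, median 0.03), cell cycle (0 of 14, median 0.02), dendritic cell markers (0 of 8, median 0.03) and macrophage markers (0 of 8, median 0.04). Stress and immediate early genes had a median of 0.24 with 0 of 12 called and 10 of 12 differences above 0, led by Dusp1 (0.83 ± 0.48), and their part in the result was not tested. Of the genes linked to IRF1 by earlier work, 1 of 20 was called, namely Gbp2. Cd274, which encodes PD-L1, had 45.0 and 36.1 TPM in IRF1KO and 64.4 and 54.9 TPM in WT (−0.55 ± 0.24). The chemokine gene Cxcl10 had 36.7 and 22.5 TPM in IRF1KO and 60.4 and 53.4 TPM in WT (−0.96 ± 0.58), and Il15 (−0.50 ± 0.59), Tlr3 (−0.62 ± 0.19) and Casp1 (−0.55 ± 0.23) did not pass.

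Genes higher in IRF1KO were ranked by p among those with no overlap and a mean of 5 TPM or more in IRF1KO. The gene with the smallest p was Irf1 itself. It was followed by Pdcd2l, with 41.8 and 35.3 TPM in IRF1KO and 24.9 and 31.3 TPM in WT (0.45 ± 0.14, unadjusted p = 0.00589, limma). Ifi27l2a, an interferon-induced gene, had 14.01 and 11.1 TPM in IRF1KO and 7.18 and 4.65 TPM in WT (0.99 ± 0.37). All had an adjusted p of 0.218 or above.

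The next question was whether the 21 genes already differed without interferon. In media 0 genes of 11842 were called between IRF1KO and WT in either direction (limma, 0 also in the blocked fit, and 305 genes had an unadjusted p below 0.05). The 21 genes had differences in media from −1.05 to 0.22 with a median of −0.09. Gbp2 lay at the low end, with 0.72 and 0.43 TPM in IRF1KO and 4.48 and 0.92 TPM in WT, where 1 WT library stood apart from the other. Gm12250 lay at the high end, with 0.65 and 0.67 TPM in IRF1KO and 0.68 and 0.21 TPM in WT.

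Whether the effect of IRF1 loss was itself larger under IFNα than in media was tested as a difference of differences. It was called for 3 of 11842 genes, all more negative under IFNα (0.0253% of those tested, and 203 at an unadjusted p under 0.05). They were Gm12250 (−3.55 ± 0.31, adjusted p = 5.28e-05), Ifi47 (−2.04 ± 0.24, adjusted p = 0.00186) and Tgtp2 (−2.96 ± 0.43, adjusted p = 0.0177). With only the 8 libraries of these groups fitted, Gm12250 was called (adjusted p = 0.0369), Ifi47 (0.292) and Tgtp2 (0.457) were not, and the small nucleolar RNA genes Snora75 and Snora78 were called in the other direction. The count was 2 when IRF1KO media replicate 2, WT IFNα replicate 1 or WT media replicate 1 was left out. For the other 18 of the 21 genes the difference was also negative, though it missed the threshold. The 21 were called on the IFNα part of this difference, so its sign was largely set by that choice and is no support. Of all genes tested, 49.3% had a negative value.

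All 21 genes were called raised by IFNα over media in WT cells and 12 of them in IRF1KO cells. Of all 11842 genes tested, 123 were called raised in WT and 96 in IRF1KO (163 and 130 in the blocked fit). The counts among the 21 share the libraries of the main comparison and describe the same values from another side. Among those raised in IRF1KO were Irgm1, at 3.18 ± 0.13 in IRF1KO and 3.93 ± 0.13 in WT, and Oasl2, at 2.75 in IRF1KO and 3.42 in WT. Gm12250 was at 0.76 ± 0.22 (adjusted p = 0.236) in IRF1KO and 4.31 ± 0.22 in WT. Gbp4 was at 0.59 in IRF1KO and 2.57 in WT, and Gbp11 at 0.07 in IRF1KO and 1.58 in WT. Irgm1 and Oasl2 were thus well above their media levels in IRF1KO, while Gm12250, Gbp4 and Gbp11 did not pass that test.

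A set of interferon genes chosen without the 4 libraries gives the wider picture. IFNα raised 164 genes in IRF2KO cells (213 in the blocked fit). Of the 164, 18 were called lower in IRF1KO than in WT under IFNα and 0 higher. In total 125 of the 164 (76.2%) had a negative difference, against 44.2% of all genes, and their median was −0.24, against 0.02 for all genes and −0.02 for the same 164 genes in media. For 119 of them (72.6%) the difference lay within 0.5 of 0. Of the 115 genes raised by IFNα in DKO cells (150 in the blocked fit), 15 of the 115 were called lower in IRF1KO and 77.4% were negative.

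IFNγ was the other treatment in which the same genotypes were compared. Under IFNγ, IRF1KO cells had 28 genes called lower than WT (0.236% of 11842) and 0 higher, and 42 in the blocked fit. In the IFNγ libraries, which are not those of the IFNα comparison, all 21 genes again had negative differences with a median of −1.54, and 13 were called. These 13 are 61.9% of the 21 and 46.4% of the 28. The genes outside the overlap were Cmpk2, Gbp7, Gbp9, Gm14446, Ifit1, Ifit2, Ifit3 and Sp140, among them all 4 IFIT genes. In the blocked fit Gbp7 (adjusted p = 0.0247), Gbp9 (0.00384) and Sp140 (0.0168) were called under IFNγ as well, so that 16 of the 21 were shared.

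Iigp1 had 7.01 and 10.1 TPM in IRF1KO and 78.1 and 79.4 TPM in WT under IFNγ, a difference of −3.08 under IFNγ and −1.65 under IFNα. Gbp2 had 29.4 and 35.8 TPM in IRF1KO and 333.8 and 344.2 TPM in WT, and its difference of −3.34 was close to the −3.33 under IFNα. Ifit1 had 0.30 and 0.22 TPM in IRF1KO and 1.62 and 1.11 TPM in WT under IFNγ, levels far below those under IFNα. The effect of IRF1 loss was tested between IFNγ and IFNα directly and was called for 0 of 11842 genes (limma, 0 also in the blocked fit, and 154 genes had an unadjusted p below 0.05), so none of these genes is shown to differ between the interferons.

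**Figure D3:**
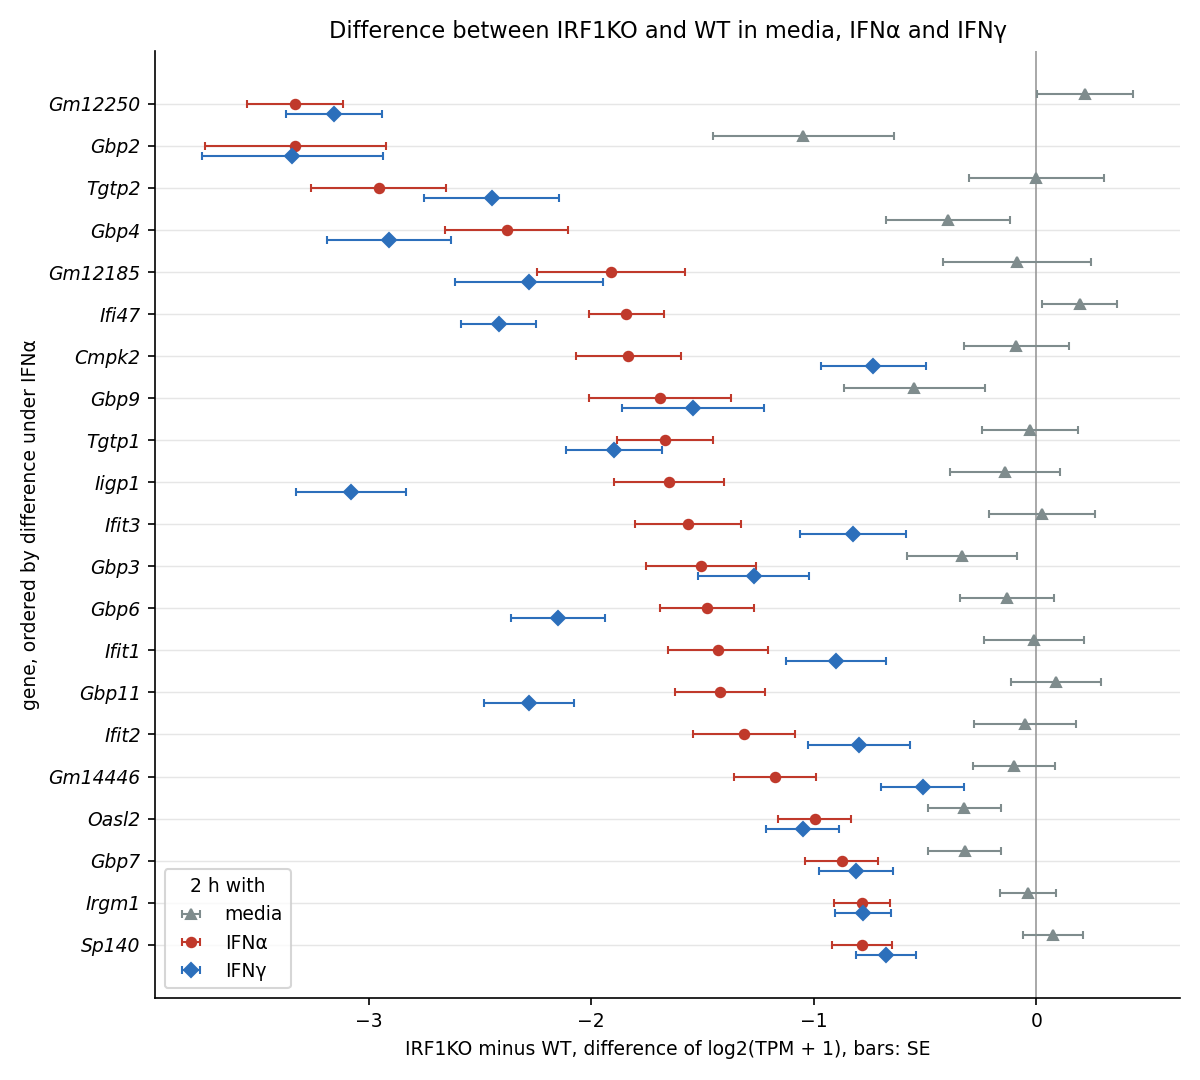
Difference between IRF1KO and WT in log2(TPM + 1), with bars for the SE, for the 21 genes called under IFNα, in media (triangles), with IFNα (circles) and with IFNγ (diamonds). The media values lie between −1.05 and 0.22, and the values with either interferon are all below 0.

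DKO and IRF2KO cells give another comparison of cells labelled without and with IRF1 under IFNα, in lines where IRF2 is targeted, and it shares no library with the first. In DKO against IRF2KO, 43 genes were called lower (0.363% of 11842) and 2 higher, and in the blocked fit 64 and 5. All 21 genes had negative differences there with a median of −1.30, and 16 were called. These are 76.2% of the 21 and 37.2% of the 43.

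Gm12250 had 1.21 and 2.31 TPM in DKO and 25.8 and 25.9 TPM in IRF2KO, and the difference of −3.31 ± 0.22 was close to the −3.33 between IRF1KO and WT. Tgtp2 had 5.03 and 8.17 TPM in DKO and 91.0 and 76.2 TPM in IRF2KO (−3.50). Cmpk2 had 27.1 and 33.8 TPM in DKO and 280.9 and 200.9 TPM in IRF2KO (−2.93), levels far above those in IRF1KO and WT. In IRF2KO, Gm12250 was thus near its WT level, while Tgtp2 and Cmpk2 were well above theirs.

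The 5 genes not called there were Gbp2, Gbp3, Gbp7, Gbp9 and Ifit3. Gbp2 had 330.0 and 278.9 TPM in DKO and 659.5 and 487.8 TPM in IRF2KO under IFNα (−0.90 ± 0.41, adjusted p = 1). In media it already had 213.6 and 101.2 TPM in DKO and 313.3 and 164.6 TPM in IRF2KO. Gbp3 had 314.0 and 320.1 TPM in DKO and 377.4 and 356.6 TPM in IRF2KO (−0.21 ± 0.25), and in media 213.0 and 197.0 TPM in DKO and 225.8 and 220.3 TPM in IRF2KO. Gbp7 (−0.19) and Gbp9 (−0.61) were likewise high in media in both lines. In DKO and IRF2KO these 4 GBP genes thus stood far above their WT levels before any IFNα was added. Gbp4 did so too, with 9.76 and 15.5 TPM in DKO and 29.2 and 36.7 TPM in IRF2KO in media. It was nevertheless called under IFNα (−1.82 ± 0.28, adjusted p = 0.00366, limma). Ifit3 (−0.98 ± 0.24) was low in media, with 0.18 and 0.08 TPM in DKO and 0.48 and 0 TPM in IRF2KO. Whether the level in media bears on the calls was not tested.

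**Figure D4:**
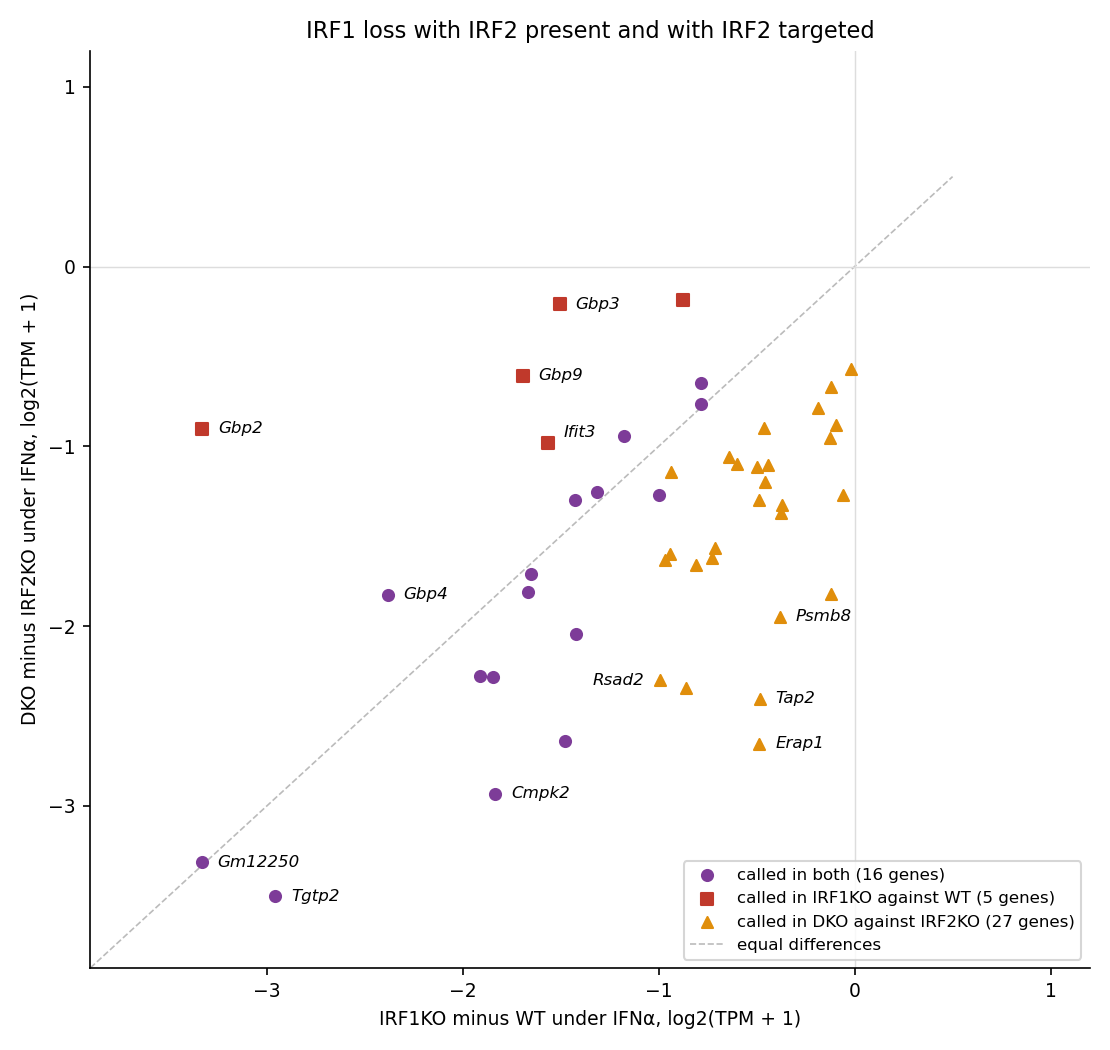
Difference between IRF1KO and WT (horizontal) and between DKO and IRF2KO (vertical), both under IFNα and in log2(TPM + 1), for the 48 genes called lower in either comparison. Gm12250 and Tgtp2 lie far down in both, Gbp2, Gbp3 and Gbp9 lie above the dashed line of equal differences, and Erap1, Tap2 and Psmb8 lie below it.

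Genes of class I presentation were called under IFNα in the lines where IRF2 is targeted. In DKO against IRF2KO under IFNα 10 of 23 tested members of the list were called lower (11 in the blocked fit, with Tapbp added), where 0 of 23 were called in IRF1KO against WT. Erap1, the aminopeptidase that trims class I peptides, had 34.8 and 43.0 TPM in IRF1KO and 48.7 and 61.2 TPM in WT (−0.49 ± 0.24), and 4.16 and 5.77 TPM in DKO and 42.8 and 30.7 TPM in IRF2KO (−2.65 ± 0.24, adjusted p = 1.01e-05). Psmb8 had 126.7 and 112.6 TPM in DKO and 532.1 and 404.4 TPM in IRF2KO (−1.95 ± 0.12, adjusted p = 5.01e-07). Tap2 had 3.74 and 3.52 TPM in DKO and 30.9 and 17.8 TPM in IRF2KO (−2.40 ± 0.29, adjusted p = 0.00034). These genes also lay lower in DKO without interferon. In media Psmb8 had 93.7 and 81.1 TPM in DKO and 362.7 and 315.0 TPM in IRF2KO, Erap1 had 3.90 and 3.65 TPM in DKO and 20.9 and 17.7 TPM in IRF2KO, and Tap2 had 2.73 and 2.02 TPM in DKO and 11.6 and 5.09 TPM in IRF2KO. For these 3 genes the groups did not overlap in media, where the difference between DKO and IRF2KO was not tested.

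The difference between the 2 comparisons was tested across all genes and called for 2 of 11842 (223 at an unadjusted p under 0.05). These were Psmb8 (1.57 ± 0.17, adjusted p = 0.00148) and Erap1 (2.17 ± 0.33, adjusted p = 0.0478, and 0.0514 in the blocked fit). A positive value means that the decrease was smaller in IRF1KO against WT than in DKO against IRF2KO. The difference between comparisons was not called for Gbp2 (−2.43, adjusted p = 0.845), nor for Gbp3 (−1.30, adjusted p = 1).

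**Figure D5:**
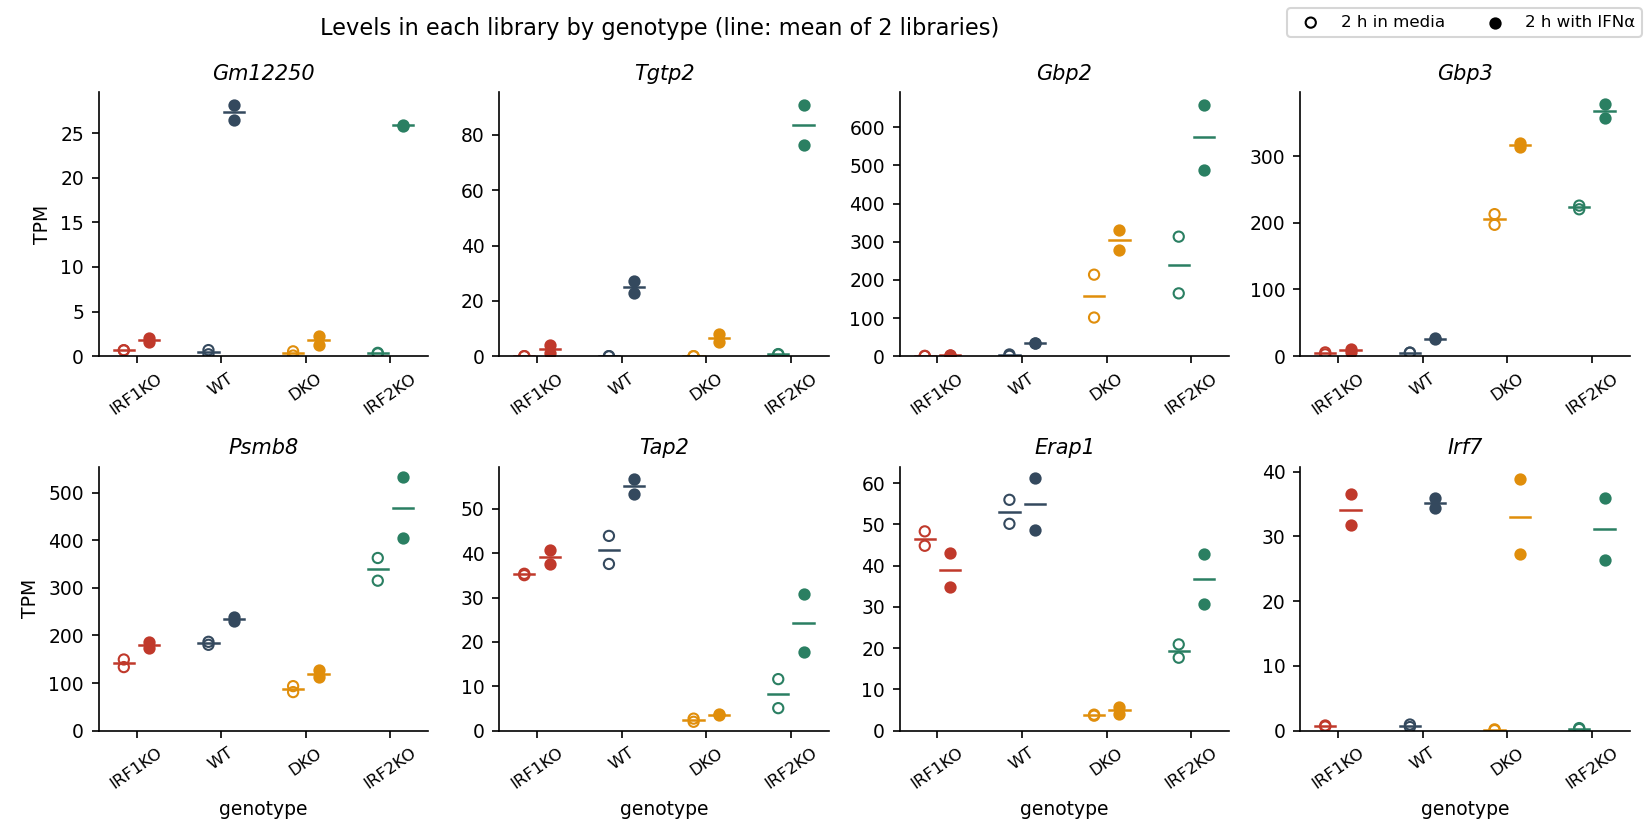
Level in TPM of 8 genes in each library of the 4 genotypes, with open points for media, filled points for IFNα and a line at the mean of 2 libraries. Gm12250 and Tgtp2 rise with IFNα mainly in WT and IRF2KO, Gbp2 and Gbp3 are high in DKO and IRF2KO also in media, Psmb8, Tap2 and Erap1 are lowest in DKO, and Irf7 is alike in all 4 genotypes.

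The 21 genes lie in few places of the genome. On chromosome 11, Irgm1, Gm12185, Tgtp1, Tgtp2 and Ifi47 lie between 48865245 and 49096987, and 5 of the 12 tested genes within 100 kb of that stretch were called. Genes among them that were not called include Gm5431 (−0.59 ± 0.22) and 9930111J21Rik2 (−0.52 ± 0.39), and Trim41 beside them was at −0.19 ± 0.24. Gm12250 lies apart on the same chromosome (58183843 to 58190198), next to Igtp and Irgm2, while its neighbours on the other side, Mrpl22 (−0.07 ± 0.09), Gemin5 (0.01 ± 0.27) and Cnot8 (−0.02 ± 0.10), showed almost no difference.

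On chromosome 3, Gbp2, Gbp3 and Gbp7 lie between 142530336 and 142638008, with 3 of 5 tested genes called and Ccbl2 beside them at 0.05 ± 0.14. On chromosome 5, Gbp4, Gbp6, Gbp9 and Gbp11 lie between 105076464 and 105346476, with 4 of 7 called, and Oasl2 lies apart (114896926 to 114912245). On chromosome 19, Ifit1, Ifit2, Ifit3 and Gm14446 lie between 34550550 and 34662981, with 4 of 6 called and Lipa beside them at −0.11 ± 0.39. Cmpk2 lies on chromosome 12 (26469117 to 26479837) beside Rsad2, Sp140 on chromosome 1 (85587491 to 85645040) beside Sp110, and Iigp1 on chromosome 18.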

How the data were processed

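TPM values, estimated by RSEM, were deposited by the authors as 1 table of 30 libraries. The submitters' processing notes name bcl2fastq 2.20, Bowtie 0.12.2 and RSEM and the builds mm10 and GRCm38. TPM keeps no read counts, so no count model was used and the depth of each library is unknown. The 41346 entries were summed to 31427 symbols. The 6 libraries without a replicate were not analysed here.

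The values of the 24 replicated libraries were fitted with limma 3.58.1 in R 4.3.3 on log2(TPM + 1), using 12 group means and a trended prior variance. Tested were the 11842 genes that reached 1 TPM in 2 libraries or more. This leaves 12 residual degrees of freedom, or 11 with a replicate block. Tests are two-sided, with Benjamini-Hochberg adjustment within each comparison. The fit was tested on simulated data.

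Each replicate number goes with 1 date-like code in the titles, and the numbers were taken to pair the samples. For 56 of the 66 pairs of groups the same-numbered libraries deviated together with a correlation over 0.1 (median 0.233), and IRF1KO and WT under IFNα did so with 0.41. A code has 1 library of each group, so differences within a code have no replicates of their own. Blocked values stand beside the main results whose call they change. The sets of promoter windows come from the fit without the block.

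The members and lists were chosen with earlier results of these data known. Named are up to 12 called genes per direction with the largest change, no overlap and 5 TPM or more on the higher side, filled to 12 by the smallest p, up to 3 members of each of 16 lists by the smallest p, 40 genes fixed by name, and every gene called in the difference between IFNα and media. Gbp11, Gbp6, Gbp7, Gm14446, Ifit2, Oasl2, Sp140, the other members of the GTPase and antiviral lists named in the text, Dusp1, Snora75, Snora78 and the neighbours of called genes fall outside the rule and were chosen after their values were seen. Lists used older symbols where RefSeq gives them as synonyms. Positions and promoter windows are from RefSeq (GRCm38.p6). The alternatives changed the pseudocount (0.1 or 5), the filter (none, or a mean of 5 TPM), the scaling (TMM or quantile), the variances (robust), the block, the groups fitted (those compared), the fold required (2) and the libraries (each left out in turn). Python 3.11.15, pandas 2.3.3, numpy 2.4.6 and matplotlib 3.10.9 were used for sequences and plots.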

Additional observations from a re-analysis of the deposited data

Results flagged for a closer look

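The effect of IRF1 loss differed between IFNα and media for 3 genes by a test of the difference itself (limma, Benjamini-Hochberg adjustment over 11842 genes). On the log2(TPM + 1) scale the difference under IFNα minus that in media was −3.55 for Gm12250, −2.96 for Tgtp2 and −2.04 for Ifi47, and all 3 genes were lower in both IRF1KO libraries than in both WT libraries under IFNα. With only these groups fitted, the call held for Gm12250 and was lost for Tgtp2 and Ifi47. The effect also differed between the comparisons with and without IRF2 for 2 genes of class I presentation. The difference of IRF1KO against WT minus that of DKO against IRF2KO under IFNα was 1.57 for Psmb8 and 2.17 for Erap1. That for Erap1 has an adjusted p of 0.0478 and passes narrowly.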

How the results depend on the processing

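The 21 genes called lower in IRF1KO under IFNα kept negative differences under every alternative that tested them. Under pseudocounts of 0.1 and 5 the count was 17 (15 of them among the 21) and 24 (19 of the 21), with no filter 31 (28 lower, 19 of them among the 21, and 3 higher), with a mean of at least 5 TPM 19, with TMM scaling, quantile normalization or robust variances 21, and with a fold of at least 2 it was 17. With the replicate block it was 23, the 21 genes with Gbp8 and Irg1 added. With only the 4 compared libraries it was 0 (197 at an unadjusted p under 0.05), and the cause of this loss was not tested. Leaving out 1 library gave 6 to 9.

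The difference between IFNα and media gave 5 genes at a pseudocount of 5, 7 with no filter (6 lower and 1 higher) and 2 to 3 with 1 library left out. With only the compared groups it gave 3, of which 2 were higher (Snora75 and Snora78) and 1 lower (Gm12250). The media comparison gave 3 with no filter and 0 to 2 with 1 library left out. The IFNγ comparison gave 17 with a mean of at least 5 TPM, 0 with only the compared groups, 42 with the replicate block and 15 to 20 with 1 library left out. DKO against IRF2KO gave 69 with the replicate block, 0 with only the compared groups and 22 to 45 with 1 library left out. The difference between those comparisons, added after the data were seen, gave 1 at a pseudocount of 0.1, 7 at 5, 4 with no filter, 1 with the replicate block, 0 with only the compared groups and 1 to 3 with 1 library left out. The difference between IFNγ and IFNα, also added, gave 3 at a pseudocount of 5 and 1 with no filter. The cause of these changes was not tested.

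Among genes not called, signs turned at differences near 0. Nlrc5 was at −0.006 with TMM scaling and −0.021 with quantile normalization. With 1 of the 4 libraries left out, Nlrc5 ran from −0.262 to 0.277, Usp18 from −0.146 to 0.093, Irf2 from −0.413 to 0.037, Irf7 from −0.143 to 0.056, Stat2 from −0.048 to 0.168, Gsdmd from −0.271 to 0.027, H2-D1 from −0.05 to 0.011 and Gbp10 from −0.138 to 0. The counting error of low genes such as Gbp11 could not be set beside their spread, as TPM gives no read depth.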
